A study of Mus musculus with 6 samples.

Results

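The genes described here are 51 mouse genes whose products write, erase or remodel chromatin and DNA marks: histone demethylases, histone methyltransferases other than those for lysine 4 of histone H3 (H3K4), deacetylases, acetyltransferases, ATP-dependent remodelers, and the enzymes that add or oxidise DNA methylation. The genes were chosen by name, with earlier results of these data known. All 51 were found among the 53640 gene symbols shared by the 6 deposited count tables. RNA was sequenced from brain tissue labelled PFC of mice aged 6 months, with 2 libraries in each of 3 groups. Treated tau mice carried the PS19 transgene, a human tau gene with the P301S change, and received WDR5-0103, a small molecule that binds the H3K4 methyltransferase subunit WDR5. Tau mice carried the same PS19 transgene and received vehicle. Control mice were C57BL/6 x C3H, without the transgene per their labels, and also received vehicle. PS19 uses the regulatory sequence of the mouse prion gene (Prnp) to express mutant tau, so the transgene does not follow the control of the tau gene itself. The libraries of a group are labelled biological duplicates. The sources used here do not say whether each came from 1 animal, so p-values measure the spread between these libraries.

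Histone tails carry methyl and acetyl groups that are placed, removed and read by separate protein families, and the balance of these activities sets how open the chromatin at a promoter or enhancer is. Methylation of H3K4 marks active promoters, methylation of H3K9 and H3K27 marks silenced chromatin, methylation of H3K36 and H3K79 follows transcribing polymerase, and acetylation of H3K27 marks active enhancers. In adult cortical neurons several of these enzymes are known as regulators of activity-dependent transcription and memory, and mutations in many of them cause human intellectual disability syndromes.

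Library totals lay between 17690811 (tau 2) and 34774643 counts (treated tau 1). Both treated tau tables list 54134 gene symbols, and the control and tau tables list 54429. Of these, 494 are only in the treated tau tables and 789 only in the control and tau tables. Pseudogenes held 2.17% and 2.22% of counts in treated tau and 1.48% to 1.63% in the other libraries. The symbol list thus differed together with treatment, and whether the counting also differed was not tested. Prnp, part of whose sequence is in the transgene, had 1876 and 1594 CPM in the treated tau libraries and, in the tau libraries, 1684 and 1472 CPM, as counts scaled to a common library size by TMM (trimmed mean of M-values). The library labelled control 1 had 1654 CPM and that labelled control 2 had 876 CPM of Prnp. For the library labelled control 1 this goes against the label, since its Prnp level lay within the range of the 4 transgenic libraries, and every comparison with control was refitted without it. By Xist (2.43 and 1.75 CPM in treated tau, 186 and 235 CPM in tau, 0.197 and 318 CPM in those labelled control) and the Y-linked Ddx3y, both treated tau libraries were from males and both tau libraries from females, with 1 of each sex in control. Sex therefore differed together with treatment between treated tau and tau, and a term for sex in the fit rests on the 2 control libraries, 1 of which goes against its label. None of the 51 genes lies on the X or Y chromosome. The 7 excitatory cortical neuron markers summed here (Slc17a7, Neurod6, Camk2a and others) were all above 0 in every library. Their summed level was 2950 and 2813 CPM in treated tau, 2711 and 2590 CPM in tau, and 2442 and 2958 CPM in those labelled control. Oligodendrocyte markers (8 genes) summed to 2641 and 2943 CPM in treated tau, 2514 and 5673 CPM in tau, and 3028 and 1494 CPM in those labelled control. The 9 striatal neuron markers summed to 179 and 193 CPM in treated tau, 222 and 374 CPM in tau, and 180 and 165 CPM in those labelled control, so both tau libraries stood above the other 4. All 9 had a log2 fold change below 0 in treated tau against tau (median -0.92, 3 called) and all 9 one above 0 in tau against control (median 1.19, none called, 9 with an unadjusted p under 0.05). The 3 olfactory bulb markers that passed the filter summed to 118 CPM in the library labelled control 1 and to between 3.69 and 7.51 CPM in the others. In such bulk tissue, fewer cells of a type and less RNA per cell cannot be told apart.

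RefSeq start windows of 4 of the 51 genes are shown. These genes were chosen after their values were seen, as those with an unadjusted p under 0.05 both in treated tau against tau and in tau against control, which share the tau libraries. They are Arid1a (chr4:133756720-133757019, minus strand), Arid1b (chr17:4994824-4995123, plus strand), Chd5 (chr4:152338401-152338700, plus strand) and Crebbp (chr16:4213355-4213654, minus strand), each a window of 300 bases from 250 before to 50 after the RefSeq start on GRCm38.p6, written 5′ to 3′ with CpG dinucleotides in capitals.
Arid1a: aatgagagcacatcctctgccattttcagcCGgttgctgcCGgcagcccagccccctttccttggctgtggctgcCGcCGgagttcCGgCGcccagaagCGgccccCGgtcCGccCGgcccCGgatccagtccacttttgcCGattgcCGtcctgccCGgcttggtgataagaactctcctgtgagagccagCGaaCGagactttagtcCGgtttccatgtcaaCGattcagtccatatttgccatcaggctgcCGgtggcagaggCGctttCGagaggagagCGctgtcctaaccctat
Arid1b: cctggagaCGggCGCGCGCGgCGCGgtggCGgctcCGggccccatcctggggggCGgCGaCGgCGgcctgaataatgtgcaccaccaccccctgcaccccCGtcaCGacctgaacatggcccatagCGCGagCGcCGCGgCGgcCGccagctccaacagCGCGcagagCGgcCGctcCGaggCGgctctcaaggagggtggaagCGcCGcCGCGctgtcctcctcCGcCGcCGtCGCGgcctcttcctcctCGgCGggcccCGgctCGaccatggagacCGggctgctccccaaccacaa
Chd5: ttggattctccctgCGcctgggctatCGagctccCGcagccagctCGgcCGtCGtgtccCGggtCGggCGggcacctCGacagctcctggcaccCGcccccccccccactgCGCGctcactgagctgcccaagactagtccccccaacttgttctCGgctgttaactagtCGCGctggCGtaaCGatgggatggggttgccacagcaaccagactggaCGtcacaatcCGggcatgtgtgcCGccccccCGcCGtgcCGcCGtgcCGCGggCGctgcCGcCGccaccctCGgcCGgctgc
Crebbp: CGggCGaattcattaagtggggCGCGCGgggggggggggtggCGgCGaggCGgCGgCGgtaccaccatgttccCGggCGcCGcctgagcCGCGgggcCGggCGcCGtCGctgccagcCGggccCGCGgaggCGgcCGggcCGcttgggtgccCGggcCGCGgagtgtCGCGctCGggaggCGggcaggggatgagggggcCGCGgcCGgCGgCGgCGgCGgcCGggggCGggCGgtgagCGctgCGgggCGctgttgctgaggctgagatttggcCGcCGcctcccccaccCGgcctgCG
The windows held 22 CpG in Arid1a, 42 in Arid1b, 32 in Chd5 and 49 in Crebbp. Those of Arid1b and Crebbp lie inside the annotated genes, whose 5′ ends are at 4994332 and 4213997. They may therefore not describe the main promoters of Arid1b and Crebbp. RefSeq windows were found for 40 of the 51 genes, and 1 window a gene was used, that nearest the annotated 5′ end. No such choice was made among the 32851 windows they are set against, so the shares are not like for like. Of these, 33 (82.5%) were CpG-rich, with an observed over expected CpG ratio above 0.6 and a GC content above 50%, against 33.3% of all 32851 windows. A GC box (GGGCGG on either strand), the motif of Sp1 family factors, occurred in 28 of the 40 (70.0%), against 35.7% of all windows, and in each of the 4 windows shown. TATAAA on either strand occurred in 1 of the 40 (2.5%), against 13.6%, and the E-box CACGTG in 3 (7.5%), against 7.15%. The windows of these genes thus mostly had the base composition of CpG island promoters and rarely a TATA motif, as a description of sequence alone.

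All 51 genes passed the filter on low counts. Their lowest count in any library was 52 (Hdac1) and their highest 23852 (Chd3). Scaled per kilobase of the longest transcript, Chd3, an ATPase of the NuRD remodeling and deacetylase complex, had the highest level at 96.2 ± 2.46 CPM per kb (SD over 6 libraries), and its libraries did not overlap those of the next gene. Smarca2, one of the alternative ATPases of the BAF remodeling complex, followed at 53.2 ± 5.60 CPM per kb, then the class IV deacetylase Hdac11 at 44.1 ± 2.63 and the neuronal NuRD ATPase Chd5 at 38.5 ± 4.22 CPM per kb. At the low end stood the H3K27 demethylase Kdm6b at 0.857 ± 0.134, Hdac1 at 1.54 ± 0.453, the class IIa deacetylase Hdac7 at 1.84 ± 0.499 and Tet1 at 1.97 ± 0.172 CPM per kb. Along this order, neighbours failed to overlap only below Chd3, Hdac2, Tet3 and Dot1l, so most neighbouring genes do not differ in level beyond the spread of their libraries.

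**Figure D1:**
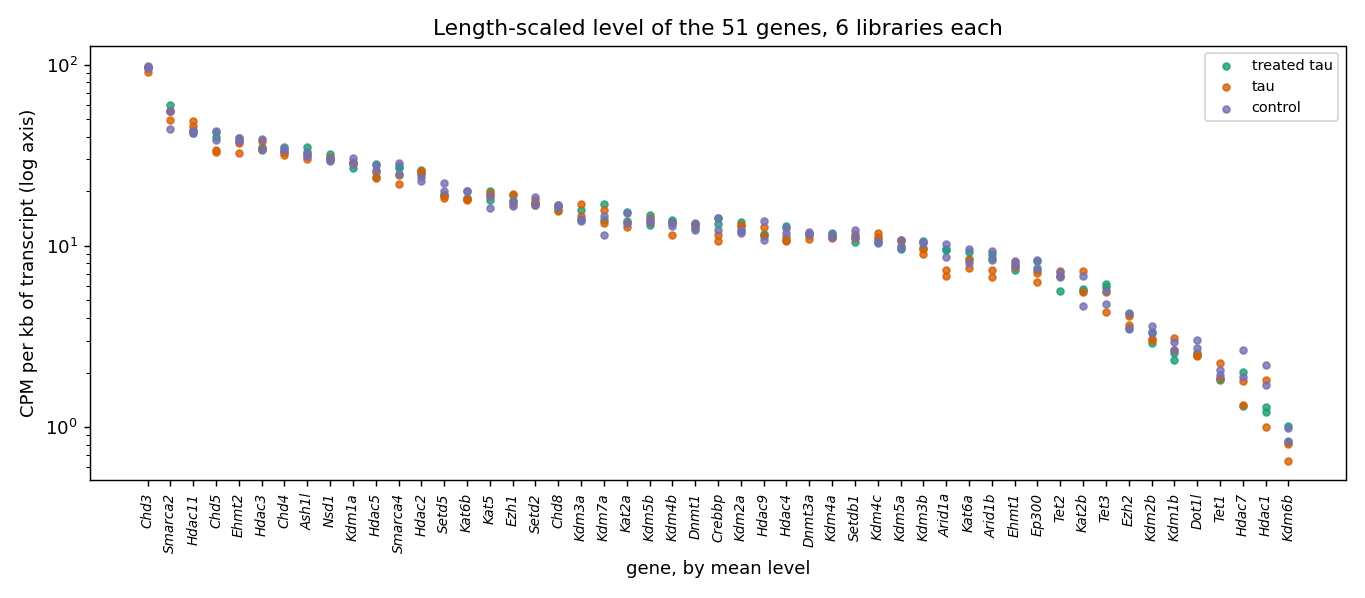
Level of each of the 51 genes in the 6 libraries, as TMM-scaled CPM per kb of transcript on a log axis, with genes from highest to lowest mean and 1 point a library coloured by group. Chd3 stands alone at 96.2 CPM per kb and Kdm6b is lowest at 0.857 CPM per kb, while points of all 3 groups lie together for most genes.

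Within the chosen pairs of paralogs compared per kb, the same gene was the more abundant in all 6 libraries, with the exception of Arid1a and Arid1b. Not all paralogs were paired. Tet2 and Tet3 were not set against each other, and their order also changed. Tet3 had 5.96 and Tet2 5.63 CPM per kb in treated tau 1, while Tet2 was the higher in the other libraries. Ezh1, the Polycomb methyltransferase of nondividing cells, was 4.12 to 5.01 times Ezh2 per kb (median 4.70), and the ratio of Smarca2 to Smarca4 ran from 1.77 to 2.53. The acetyltransferase Crebbp was 1.61 to 1.79 times Ep300, the H3K4 demethylase Kdm1a was 9.23 to 12.3 times Kdm1b, and Kdm5b was 1.26 to 1.5 times Kdm5a. Arid1a and Arid1b, alternative subunits of BAF, had nearly equal levels per kb, with a ratio of 0.933 to 1.10. For single genes the highest library was under 1.2 times the lowest in 22 of 51 genes, with the narrowest ratio, 1.07, in Kdm4a. It was above 1.5 in Kdm6b, Hdac1, Hdac7 and Kat2b, and the first 3 of these are also among the lowest in level.

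No member passed the adjusted p threshold of 0.05 in any comparison (edgeR quasi-likelihood test, Benjamini-Hochberg over 20694 genes). Over all genes, 3.76% were called in treated tau against tau (639 higher and 140 lower), 0% in tau against control and 4.22% in treated tau against control. With limma-voom no member was called either. DESeq2 called 2 members higher in treated tau against tau, Arid1a and Chd5, which is 3.92% of members against 3.93% of all genes. All genes include noncoding genes, while every member codes for protein, so these shares are not like for like. In the edgeR fit, 76 of 14739 protein-coding genes were called higher and 87 lower in treated tau against tau. In treated tau against control 64 were called higher and 75 lower. The DESeq2 share of protein-coding genes was not counted. It called 0 of the 44 members it gave an adjusted p in tau against control (0.78% of the genes with one) and 0 of 51 in treated tau against control (4.3% of all genes). Treated tau against tau and tau against control share the tau libraries, so values of opposite sign in the pair are partly built in. At an unadjusted p under 0.05, 6 of 51 members were higher in treated tau than in tau (11.8%, against 7.52% of all genes in that direction) and none was lower, against 4.45%. In tau against control 5 of 51 were lower (9.8%, against 5.64% of all genes in that direction) and none was higher, against 4.31%, and in treated tau against control the number was 0, against 16.3% of all genes in either direction. With either direction counted, 11.8% of members against 12% of all genes, and 9.8% against 9.95%, lay under that unadjusted p. The member shares were thus near those of all genes tested only with directions pooled. All 51 members code for protein. Of the 14739 protein-coding genes tested, 637 were higher and 650 lower in treated tau than in tau at that unadjusted p. In tau against control 764 were higher and 707 lower, and in treated tau against control 703 were higher and 788 lower. The median member log2 fold change was 0.026 in treated tau against tau (all genes -0.006), -0.046 in tau against control (all genes -0.003) and -0.008 in treated tau against control (all genes -0.007). Each member's log2 CPM minus its mean over the 6 libraries gave a median over members in each library. These medians were -0.03 and 0.032 in treated tau, -0.039 and -0.034 in tau, and 0.022 and 0.029 in the libraries labelled control. Their SD within groups, pooled over the groups, was 0.026. After correction for GC content and transcript length the median fold changes were -0.004 in treated tau against tau, 0.010 in tau against control and 0.013 in treated tau against control, so each changed sign. The members are longer than most genes, with a median transcript of 6654 bases, against 3201 bases for protein-coding genes tested.

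**Figure D2:**
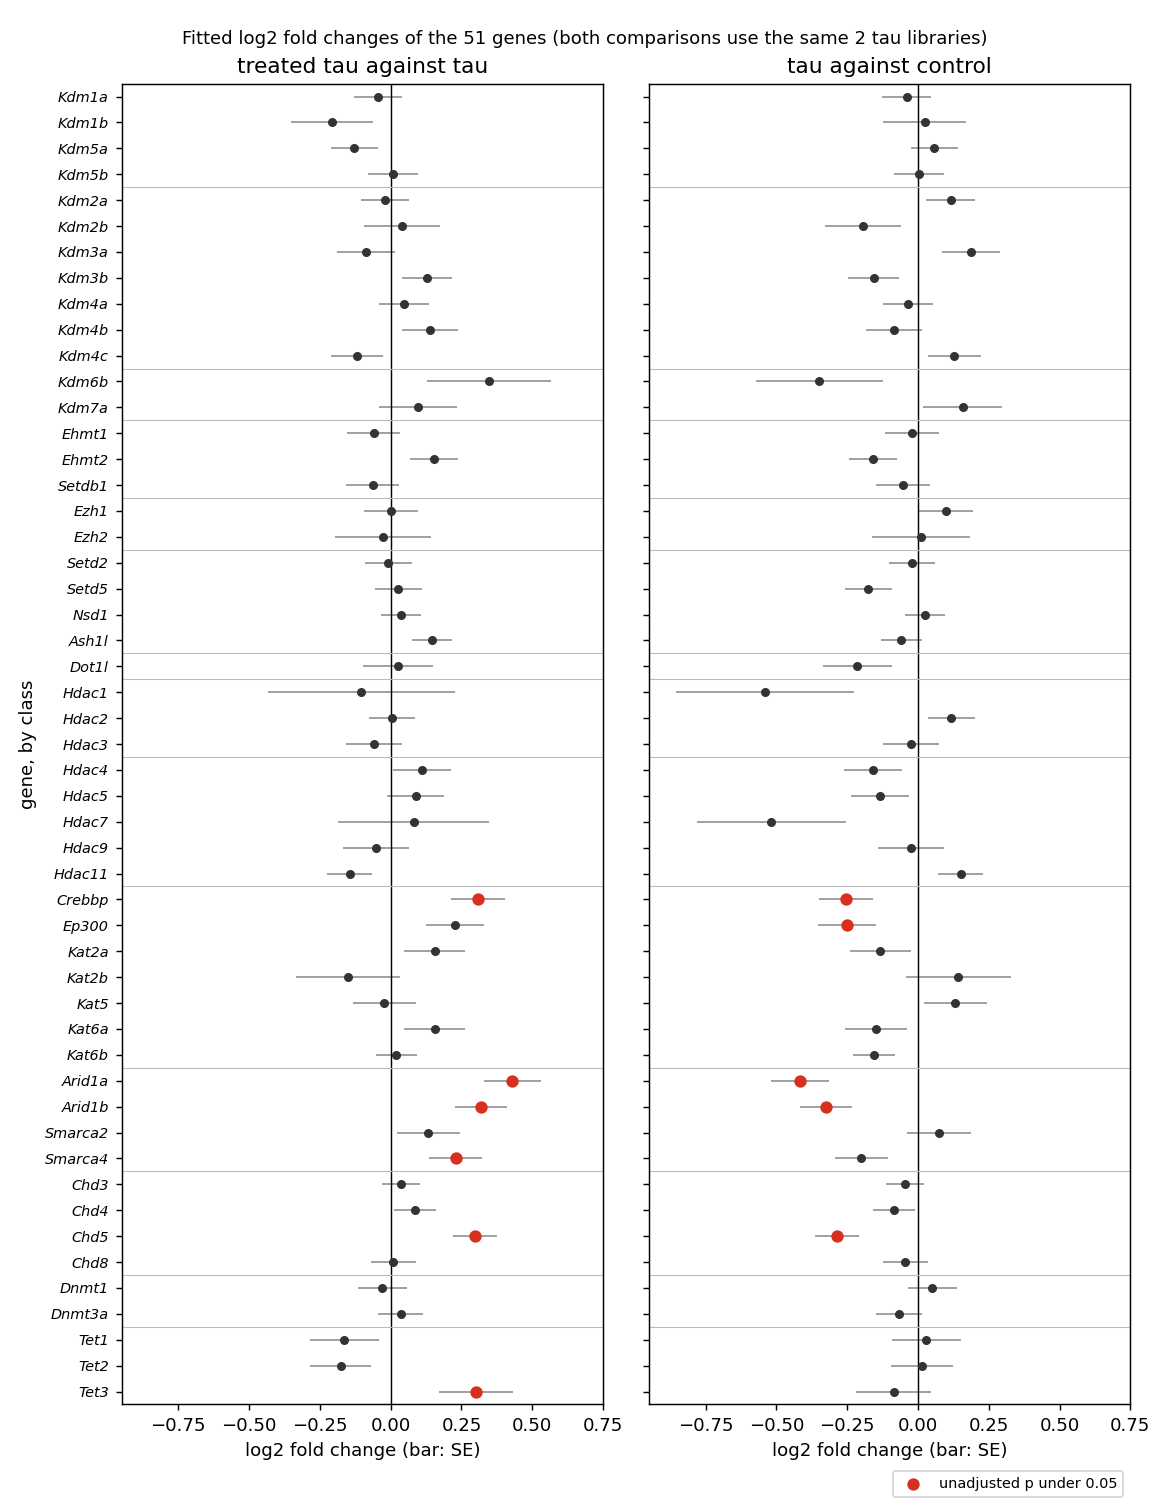
Fitted log2 fold change of each of the 51 genes, with bars of 1 SE, for treated tau against tau on the left and tau against control on the right, in class order. Red points mark an unadjusted p under 0.05, which 6 genes reach on the left (all above 0) and 5 on the right (all below 0). Both panels use the same 2 tau libraries.

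The width of the intervals bounds what these libraries can resolve for single genes. In treated tau against tau the 95% interval of the fold lay within 1.5-fold in either direction for 46 of 51 genes, the exceptions being Kdm6b, Hdac1, Hdac7, Arid1a and Tet3. For tau against control this held for 47 genes, without Kdm6b, Hdac1, Hdac7 and Arid1a, and in treated tau against control for 49, without Hdac1 and Hdac7. A median SE of about 0.096 on the log2 scale lay behind these intervals, from 0.066 in the abundant Chd3 to 0.33 in Hdac1.

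Among the members, Arid1a had the smallest p both in treated tau against tau and in tau against control. This gene codes for a DNA-binding subunit of BAF, a complex that opens chromatin at enhancers. Arid1a had 78.9 and 77.3 CPM in treated tau libraries, 56.1 and 60.1 CPM in tau libraries, and 71.0 and 84.0 CPM in those labelled control. Both tau libraries were below the other 4, and treated tau and control libraries overlapped. Its means were 78.1 ± 1.12 CPM in treated tau, 58.1 ± 2.81 CPM in tau and 77.5 ± 9.20 CPM in the libraries labelled control (SD, n = 2 each). The log2 fold change was 0.43 ± 0.10 (SE) in treated tau against tau, with a 95% interval of 0.20 to 0.66 and an adjusted p of 0.0518. In tau against control it was -0.42 ± 0.10, with an adjusted p of 0.441. Arid1a passed the threshold in treated tau against tau with DESeq2 (adjusted p 0.0108), in a fit to the 4 libraries of those 2 groups (0.0243), and without either control library (0.0234 and 0.0236), but with protein-coding genes alone its adjusted p was 0.174. With a term for sex, its log2 fold change was 0.67 with an adjusted p of 0.0863. Without the library labelled control 1, which leaves females only in tau against control, the difference was -0.53 with an adjusted p of 0.278.

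Arid1b, its alternative in the complex, had 102 and 97.1 CPM in treated tau libraries, 83.2 and 76.6 CPM in tau libraries, and 94.7 and 106 CPM in those labelled control. Again both tau libraries were below the rest. The log2 fold change was 0.32 ± 0.09 in treated tau against tau (adjusted p 0.125) and -0.33 ± 0.09 in tau against control (adjusted p 0.441). Smarca4, the BAF ATPase known as BRG1, had 172 and 177 CPM in treated tau libraries, 139.8 and 158 CPM in tau libraries, and 159 and 182 CPM in those labelled control, and its log2 fold change in treated tau against tau was 0.23 ± 0.09 (adjusted p 0.347), which was 0.15 without tau 1. For Smarca2 the libraries overlapped in each comparison, with 353 and 328 CPM in treated tau libraries, 329 and 292 CPM in tau libraries, and 261 and 329 CPM in those labelled control. In treated tau against control, where it had the smallest p of the BAF genes, its log2 fold change was 0.21 ± 0.11 (adjusted p 0.409), and it ran from 0.05 to 0.39 over fits without 1 library. The 4 BAF genes were thus all positive in treated tau against tau, with a median of 0.27, and no difference among them passed the adjusted threshold. Cell type markers also differed between these libraries. Both tau libraries held more of the summed striatal neuron markers than the other 4, with 3 of the 9 called lower in treated tau against tau. They held less of the summed excitatory neuron markers than both treated tau libraries, with none of the 7 called. The library labelled control 1 had 2442 CPM of the excitatory markers, less than both tau libraries. The part of these markers in the values of the BAF genes, and of Chd5, Crebbp and Ep300 described next, was not tested.

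**Figure D3:**
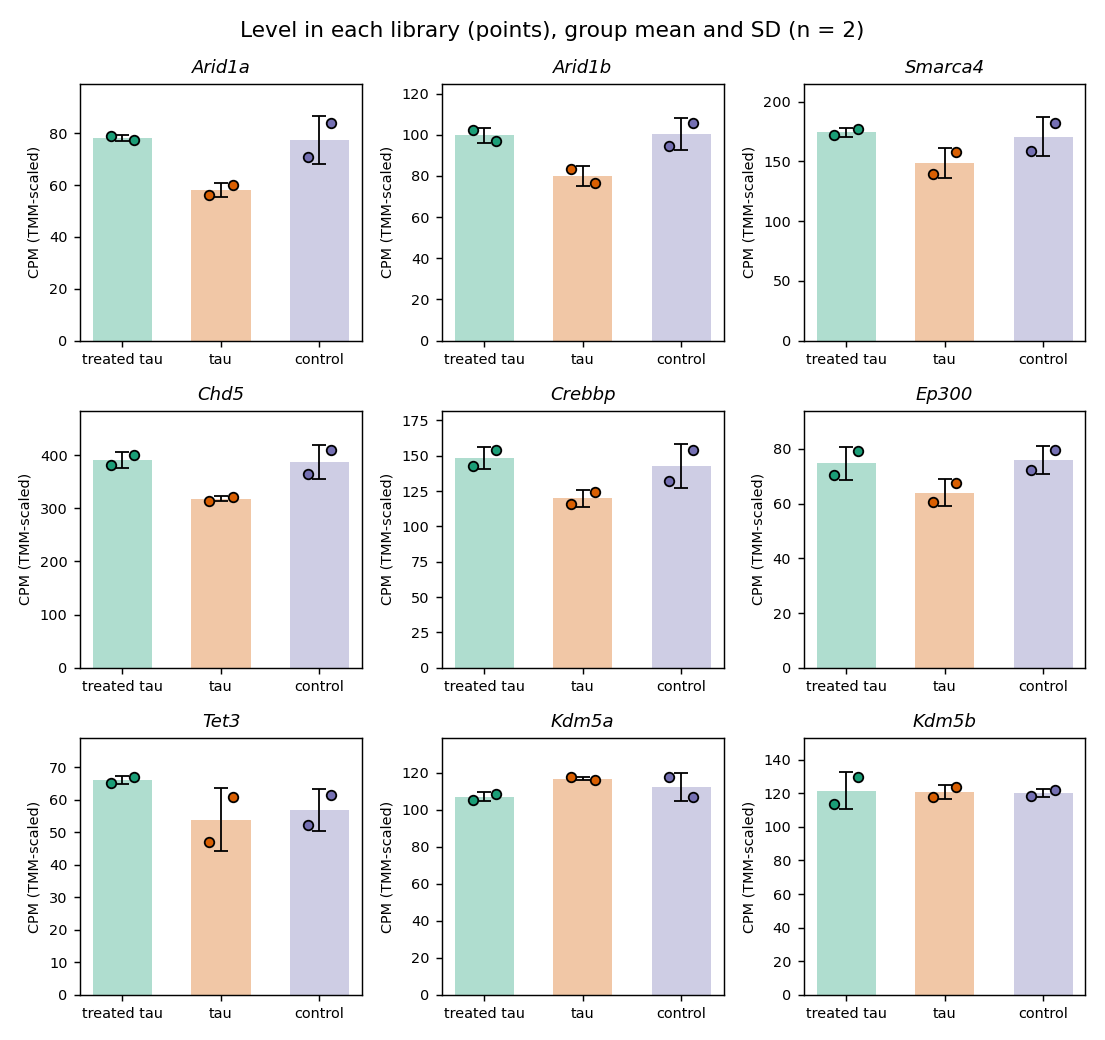
TMM-scaled CPM of 9 genes in each library (points), with the group mean as a bar from 0 and 1 SD (n = 2 each), treated tau on the left, then tau and control. For Arid1a, Arid1b, Smarca4, Chd5, Crebbp and Ep300 both tau points lie under the other 4, while the Kdm5b groups overlap. The genes with low tau points were named for an unadjusted p under 0.05 in comparisons that use the tau libraries.

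Among the CHD remodelers, Chd5, the neuronal member of the NuRD ATPases, had 381 and 401 CPM in treated tau libraries, 314 and 321 CPM in tau libraries, and 365 and 409.5 CPM in those labelled control. Both tau libraries were again the lowest pair. Its log2 fold change in treated tau against tau was 0.30 ± 0.08, with a 95% interval of 0.12 to 0.47 and an adjusted p of 0.0849, and in tau against control -0.29 ± 0.08, with an adjusted p of 0.441. Chd5 was called in treated tau against tau by DESeq2 (adjusted p 0.0301), by the fit to 4 libraries (0.0376) and without either control library (0.033 and 0.0326), and with protein-coding genes alone its adjusted p was 0.252. After correction for GC content and length the difference in tau against control was -0.16. Chd8, a remodeler whose human counterpart is known as an autism gene, had 134 and 142 CPM in treated tau libraries, 132 and 142 CPM in tau libraries, and 139 and 143 CPM in those labelled control, with all groups overlapping. With the other NuRD ATPases, Chd3 and Chd4, the class had log2 fold changes between 0.01 and 0.30 in treated tau against tau and between -0.29 and -0.04 in tau against control.

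Of the 7 acetyltransferases, 5 had both treated tau libraries above both tau libraries (21.2% of all genes did), and 4 had both tau libraries below both control libraries (21.3% of all genes). Crebbp, which with Ep300 acetylates H3K27 at enhancers, had 143 and 154 CPM in treated tau libraries, 116 and 124 CPM in tau libraries, and 132 and 154 CPM in those labelled control. Its log2 fold change was 0.31 ± 0.10 in treated tau against tau (adjusted p 0.164) and -0.25 ± 0.10 in tau against control (adjusted p 0.452). Ep300 had 70.6 and 79.1 CPM in treated tau libraries, 60.5 and 67.6 CPM in tau libraries, and 72.4 and 79.6 CPM in those labelled control, and its log2 fold changes were 0.23 ± 0.10 (adjusted p 0.422) and -0.25 ± 0.10 (adjusted p 0.476). Thus both paralogs were lowest in the tau libraries, and neither passed the test. Kat6b, an acetyltransferase of the MYST family, had 141 and 139.8 CPM in treated tau libraries, 139 and 138 CPM in tau libraries, and 154 and 154 CPM in those labelled control, so that the libraries labelled control were above the other 4 (treated tau against control, -0.14 ± 0.07, adjusted p 0.407). The other 4, Kat2a, Kat2b, Kat5 and Kat6a, had log2 fold changes between -0.15 and 0.16 in treated tau against tau. Arid1b, Ep300 and Smarca4 are named for an unadjusted p under 0.05, a choice made after their values were seen.

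The H3K4 demethylases oppose the methyltransferases that WDR5 serves, and none of the 4 was called. Kdm1a (LSD1), which removes mono- and dimethylation, had 81.0 and 87.4 CPM in treated tau libraries, 87.0 and 86.4 CPM in tau libraries, and 92.2 and 86.2 CPM in those labelled control. Kdm1b (LSD2) had 12.9 and 11.7 CPM in treated tau libraries, 13.2 and 15.4 CPM in tau libraries, and 13.2 and 14.7 CPM in those labelled control. Kdm1b was lower in both treated tau libraries than in the other 4, and the groups overlapped for Kdm1a. Kdm5a, which removes trimethylation, had 105 and 109 CPM in treated tau libraries, 117 and 116 CPM in tau libraries, and 118 and 107 CPM in those labelled control. Kdm5b, its paralog, had 114 and 129.6 CPM in treated tau libraries, 118 and 124 CPM in tau libraries, and 119 and 122 CPM in those labelled control. Treated tau libraries were also below both tau libraries for Kdm5a. The log2 fold changes of Kdm1b and Kdm5a in that comparison were -0.21 ± 0.15 (adjusted p 0.689) and -0.13 ± 0.08 (adjusted p 0.646), and those of Kdm1a and Kdm5b, whose groups overlapped, were -0.04 ± 0.09 and 0.01 ± 0.09. Tau and control libraries overlapped for all 4, with log2 fold changes from -0.04 to 0.06. The 95% interval for Kdm5b in treated tau against tau was -0.19 to 0.21, and for Kdm1a -0.24 to 0.15.

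The demethylases of H3K36 and H3K9 numbered 7, and their log2 fold changes ran from -0.12 to 0.14 in treated tau against tau and from -0.19 to 0.19 in tau against control. Kdm3a, an H3K9 demethylase, had 67.7 and 76.3 CPM in treated tau libraries, 70.9 and 82.2 CPM in tau libraries, and 66.3 and 67.9 CPM in those labelled control, with both tau libraries above both control libraries (0.19 ± 0.10, adjusted p 0.553, and from 0.08 to 0.30 without 1 library). Kdm3b, its paralog, had 67.3 and 62.3 CPM in treated tau libraries, 57.7 and 61.2 CPM in tau libraries, and 65.9 and 66.5 CPM in those labelled control, with both tau libraries below the other 4 (0.13 ± 0.09 in treated tau against tau, adjusted p 0.684, and from 0.07 to 0.19 without 1 library). Kdm2b, a CpG island binding H3K36 demethylase, had 15.0 and 17.4 CPM in treated tau libraries, 15.8 and 15.6 CPM in tau libraries, and 18.7 and 17.2 CPM in those labelled control. Of the H3K27 demethylases, the inducible Kdm6b had 5.49 and 6.79 CPM in treated tau libraries, 4.34 and 5.39 CPM in tau libraries, and 6.59 and 5.61 CPM in those labelled control, and its log2 fold change in treated tau against tau was 0.35 ± 0.22 (adjusted p 0.636), with an interval of -0.14 to 0.84 and values from 0.18 to 0.51 over fits without 1 library. Kdm7a, which also acts on H3K9, had 133 and 164 CPM in treated tau libraries, 127 and 151 CPM in tau libraries, and 110.0 and 139 CPM in those labelled control, with the groups overlapping (0.25 ± 0.14 in treated tau against control, adjusted p 0.413).

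The methyltransferases of H3K9 and H3K27, 5 in all, had log2 fold changes between -0.16 and 0.15 in the 3 comparisons. Ehmt2 (G9a), which with Ehmt1 (GLP) mono- and dimethylates H3K9, had 158 and 152 CPM in treated tau libraries, 148 and 131 CPM in tau libraries, and 153 and 158 CPM in those labelled control, with tau below the other libraries (0.15 ± 0.08 in treated tau against tau, adjusted p 0.564, and from 0.07 to 0.25 without 1 library). Setdb1, which trimethylates H3K9 at retroelements, had 48.7 and 52.1 CPM in treated tau libraries, 53.9 and 51.2 CPM in tau libraries, and 56.7 and 52.4 CPM in those labelled control. Its log2 fold change in treated tau against control was -0.12 ± 0.09 (adjusted p 0.595). Ezh1, the more abundant of the Polycomb pair, had 74.1 and 80.1 CPM in treated tau libraries, 81.7 and 72.0 CPM in tau libraries, and 74.1 and 69.7 CPM in those labelled control. Ezh2 had 9.79 and 11.7 CPM in treated tau libraries, 11.5 and 10.2 CPM in tau libraries, and 11.9 and 9.72 CPM in those labelled control. The groups overlapped for both Polycomb enzymes, with log2 fold changes between -0.03 and 0.10.

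Among proteins with SET domains that act on H3K36 or other sites, Setd5 had 129 and 129 CPM in treated tau libraries, 129 and 124 CPM in tau libraries, and 135 and 151 CPM in those labelled control. Both libraries labelled control were above the other 4, and its log2 fold change was -0.18 ± 0.08 in tau against control (adjusted p 0.510). Ash1l, an H3K36 methyltransferase, had 385 and 407 CPM in treated tau libraries, 349.5 and 365 CPM in tau libraries, and 365 and 379 CPM in those labelled control, with treated tau above both other groups (0.15 ± 0.07 against tau, adjusted p 0.472). The class also holds Nsd1 and Setd2, which methylate H3K36, and its 4 log2 fold changes ran from -0.01 to 0.15 in treated tau against tau. Dot1l, the H3K79 methyltransferase, had 16.9 and 17.4 CPM in treated tau libraries, 16.9 and 16.8 CPM in tau libraries, and 20.6 and 18.5 CPM in those labelled control, again with both control libraries above the rest (-0.21 ± 0.12 in tau against control, adjusted p 0.565).

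Of the class I deacetylases, Hdac3, the catalytic subunit of the NCoR corepressor, had 71.4 and 69.1 CPM in treated tau libraries, 76.8 and 69.3 CPM in tau libraries, and 79.1 and 69.7 CPM in those labelled control, and its log2 fold change in treated tau against tau was -0.06 ± 0.10. Hdac1, a subunit of the Sin3, NuRD and CoREST complexes, had 2.63 and 2.46 CPM in treated tau libraries, 2.03 and 3.73 CPM in tau libraries, and 4.50 and 3.49 CPM in those labelled control. Its log2 fold change was -0.54 ± 0.31 in tau against control (adjusted p 0.569) and -0.64 ± 0.29 in treated tau against control (adjusted p 0.322), the widest intervals of any member. Other genes hold 58.67% of the 50-mers of Hdac1, mainly the pseudogene Gm10093, which had 8.77 and 8.35 CPM in treated tau, 8.10 and 7.16 CPM in tau, and 7.97 and 7.33 CPM in the libraries labelled control. The pseudogene thus held more counts than the gene in every library, so the Hdac1 values are uncertain. Its paralog Hdac2 is 10.9 to 25.8 times as high per kb, a ratio that carries the same uncertainty.

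Class IIa deacetylases shuttle between cytoplasm and nucleus with neuronal activity, and Hdac11 is the class IV enzyme. Hdac7 had 8.48 and 5.56 CPM in treated tau libraries, 7.59 and 5.62 CPM in tau libraries, and 11.2 and 8.04 CPM in those labelled control, and its log2 fold change was -0.52 ± 0.26 in tau against control (adjusted p 0.528), with an interval of -1.11 to 0.07. Hdac11, which is abundant in oligodendrocytes and neurons, had 111 and 115 CPM in treated tau libraries, 121 and 129 CPM in tau libraries, and 111 and 115 CPM in those labelled control, with both tau libraries above the other 4 (-0.14 ± 0.08 in treated tau against tau, adjusted p 0.559). Oligodendrocyte markers were highest in tau 2 (above), the library highest in Hdac11, and their part was not tested. Hdac4, Hdac5 and Hdac9 had log2 fold changes from -0.05 to 0.11 in treated tau against tau.

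For DNA methylation, the maintenance enzyme Dnmt1 and the de novo enzyme Dnmt3a overlapped between groups in every comparison. Dnmt3a, the main source of non-CpG methylation in neurons, had 113 and 111 CPM in treated tau libraries, 105 and 113 CPM in tau libraries, and 116 and 113 CPM in those labelled control. Its log2 fold changes were 0.04 ± 0.08 in treated tau against tau and -0.07 ± 0.08 in tau against control. The TET dioxygenases oxidise 5-methylcytosine. Tet3 had 65.0 and 66.9 CPM in treated tau libraries, 46.9 and 60.7 CPM in tau libraries, and 52.1 and 61.4 CPM in those labelled control, with both treated tau libraries above the other 4, and its log2 fold change was 0.30 ± 0.13 in treated tau against tau (adjusted p 0.399). It was 0.12 without tau 1 and 0.49 without tau 2. Tet1 and Tet2 were both below 0 in that comparison, and the lowest log2 fold change of the family was -0.18.

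Groups of 2 libraries that did not overlap were common among all genes as well as among the members. Treated tau libraries were above tau libraries for 16 members (31.4%, against 21.2% of all genes) and below for 5 (9.8%, against 20.1%), so 41.2% did not overlap, against 41.3%. Tau libraries were below control libraries for 19 members (37.3%, against 21.3%) and above for 6 (11.8%, against 20.3%). Between treated tau and control 12 members did not overlap (23.5%, against 46.3%). Both tau libraries were below the other groups for 12 members and above them for 2. The share of all genes with either pattern was not counted, so these counts are not read as particular to the members.

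**Figure D4:**
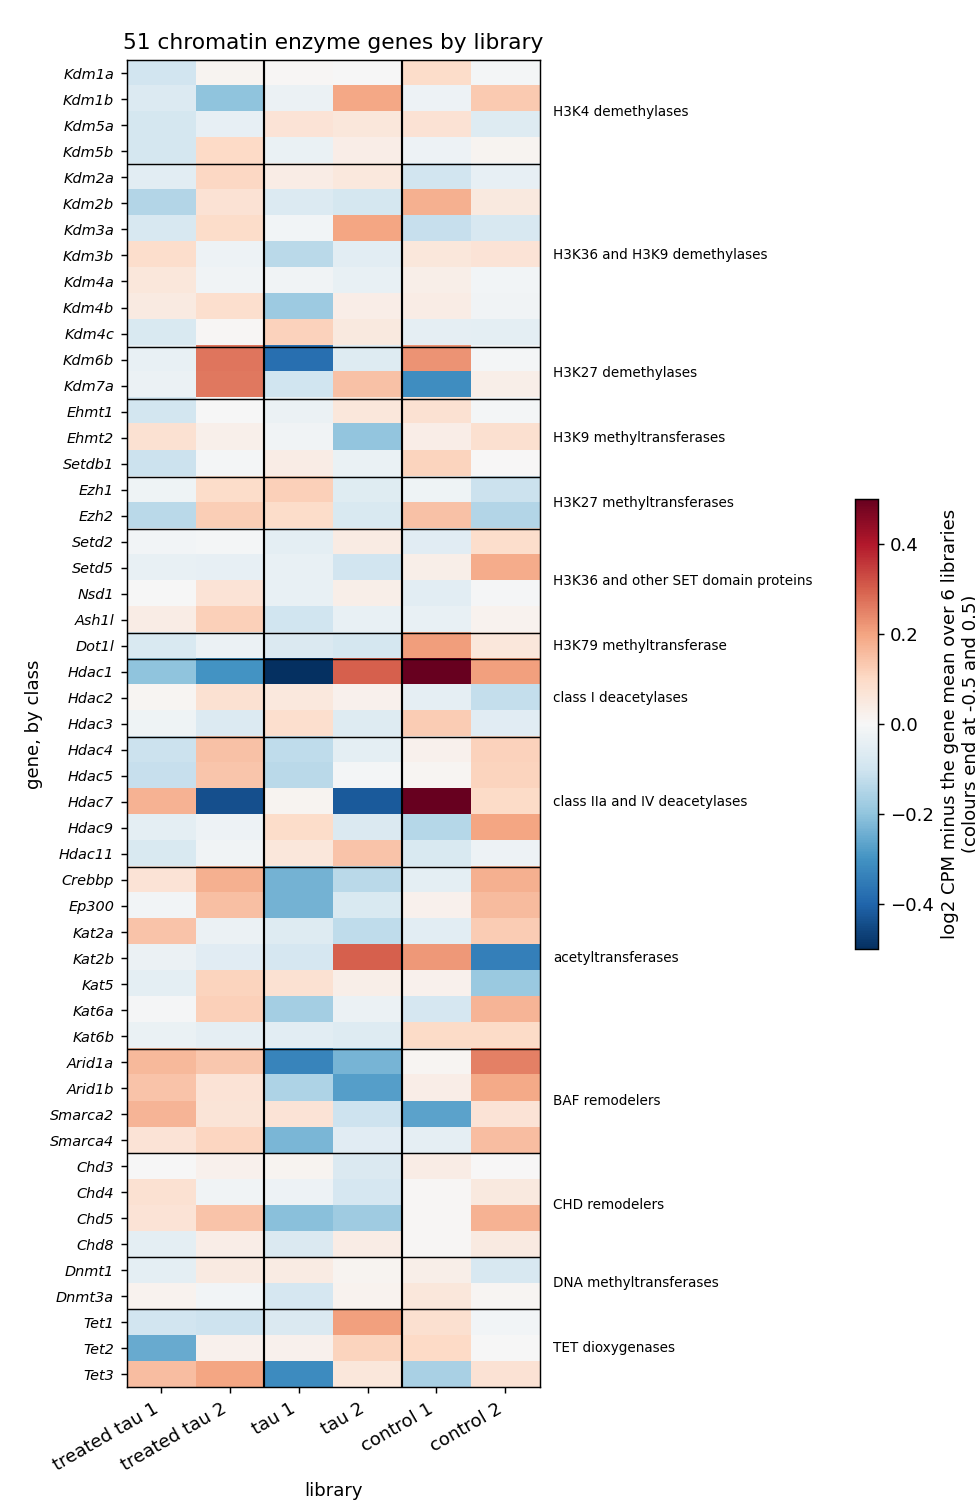
Log2 CPM of each gene in each library minus the gene's mean over the 6 libraries, in class order, with treated tau on the left, then tau and control; red is above the gene's mean and blue below, and colours end at 0.5 in either direction. Both tau columns are blue in the rows of Arid1a, Arid1b, Crebbp and Chd5, while Hdac1 and Hdac7 vary widely between the libraries of 1 group.

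Arid1a, Chd5, Arid1b and Crebbp had a positive log2 fold change in treated tau against tau in all 16 alternative fits, from 0.36 to 0.67 for Arid1a and 0.23 to 0.47 for Chd5, with Arid1b from 0.27 to 0.48 and Crebbp from 0.26 to 0.53. Over those fits Arid1a's adjusted p ran from 0.0108 to 0.351 and that of Chd5 from 0.0301 to 0.480. Both were called in 4 of the 16. The highest log2 fold change of each of the 4 genes came from the fit with a term for sex.

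**Figure D5:**
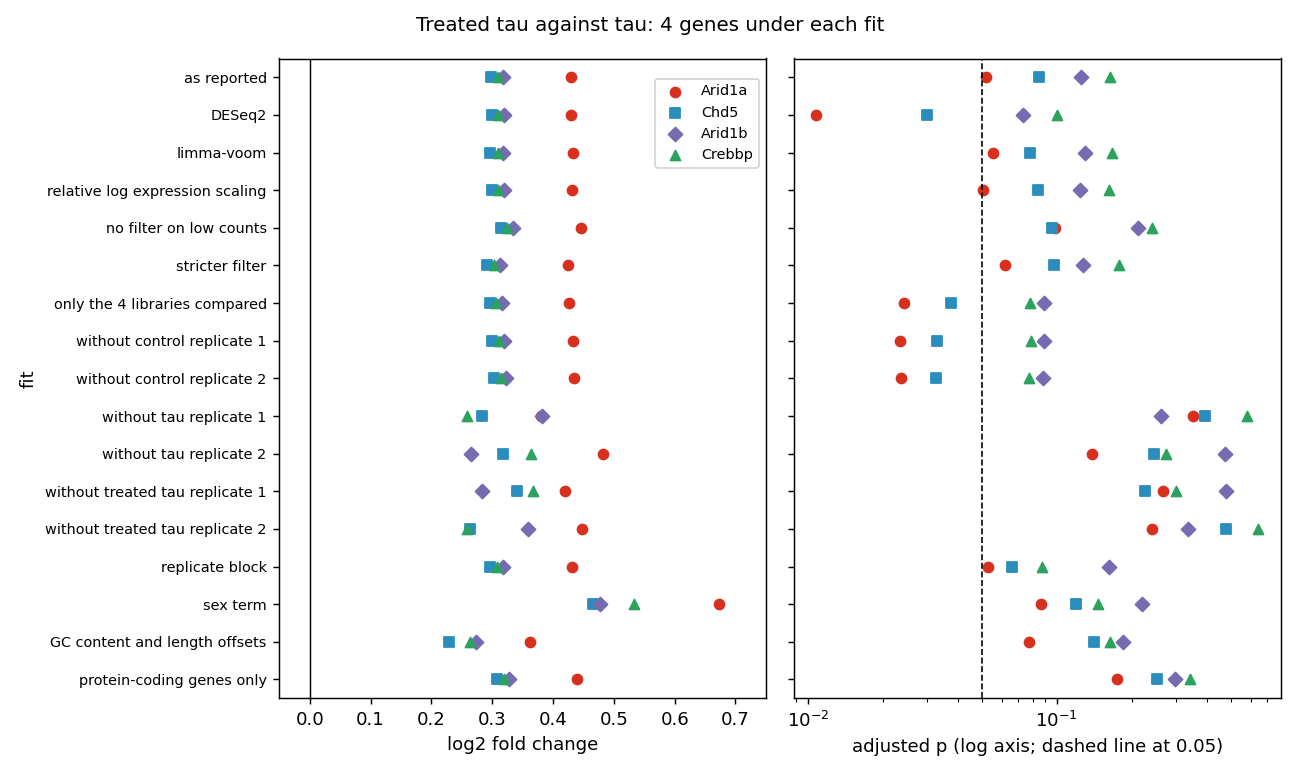
Log2 fold change (left) and adjusted p on a log axis (right) of Arid1a, Chd5, Arid1b and Crebbp in treated tau against tau, for the reported fit and each of 16 alternatives down the page. All fold changes lie above 0, and adjusted p falls left of the dashed line at 0.05 for Arid1a and Chd5 in 4 fits only.

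Without the library labelled control 1, no member was called in tau against control or in treated tau against control, and the member medians were -0.061 and -0.029. In tau against control the log2 fold changes were then -0.53 for Arid1a, -0.40 for Arid1b, -0.36 for Chd5, -0.36 for Crebbp and -0.31 for Ep300. Without the library labelled control 2 they were -0.29 for Arid1a, -0.24 for Arid1b, -0.20 for Chd5, -0.14 for Crebbp and -0.18 for Ep300, each nearer to 0 than with control 2 as the only control. Over fits without any 1 library, tau against control ran from -0.29 to -0.13 for Dot1l, -0.97 to -0.10 for Hdac1, -0.77 to -0.25 for Hdac7, -0.49 to -0.17 for Kdm6b and -0.25 to -0.10 for Setd5. Treated tau against control ran from -0.79 to -0.17 for Hdac7, 0.10 to 0.44 for Kdm7a, 0.11 to 0.34 for Tet3 and -0.17 to -0.05 for Setdb1. In treated tau against tau the ranges were -0.32 to -0.10 for Kdm1b and 0.15 to 0.31 for Ep300.

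The other genes of these pathways, 118 in all tables, gave the context of a wider list: further demethylases and methyltransferases, Polycomb and H3K9 partner proteins, corepressors, acetyltransferase partners, remodeler subunits and DNA methylation genes. Of the 117 tested, 1 was called lower in treated tau against tau (0.677% of all genes were called lower), Cbx3. None was called in the other comparisons. At an unadjusted p under 0.05 there were 8 higher and 4 lower in treated tau against tau (7.52% and 4.45% of all genes), 11 in tau against control (9.95% of all genes in either direction) and 5 in treated tau against control (16.3% of all genes). Unlike the 51 members, this list holds X-linked genes. Kdm6a was among those lower in treated tau (males) against tau (females), at -0.42 ± 0.12. The X-linked Kdm5c, Phf8, Suv39h1, Hdac6 and Hdac8 were not. The part of sex in these counts was not tested. Cbx3 (HP1 gamma), which reads H3K9 methylation, had 10.7 and 7.01 CPM in treated tau libraries, 15.6 and 19.9 CPM in tau libraries, and 13.8 and 15.9 CPM in those labelled control, with both treated tau libraries below the other 4. It fell by 0.97 on the log2 scale in treated tau against tau (SE 0.21, adjusted p 0.0308). The adjusted p was 0.0853 with no filter on low counts, 0.159 with protein-coding genes alone and 0.448 with a term for sex, and it ran from 0.0236 to 0.204 over fits without 1 library, being over the threshold without tau 1, tau 2 or treated tau 2. Copies elsewhere in the genome hold 28.91% of the 50-mers of Cbx3, so its counts are uncertain. The treated tau tables also have another symbol list than the other tables, and the part of this in the Cbx3 difference was not tested. Over all 117, 70 had a log2 fold change above 0 in treated tau against tau (median 0.025, with 48.7% of all genes above 0) and 68 one below 0 in tau against control (median -0.025). By list, those above 0 in treated tau against tau were 4 of 10 other demethylases (median -0.04), 11 of 20 other methyltransferases (median 0.02), 8 of 17 Polycomb and H3K9 partners (median -0.002), 14 of 21 deacetylases and corepressors (median 0.06), 15 of 25 remodeler subunits (median 0.02) and 8 of 12 DNA methylation genes (median 0.08). Of 12 further acetyltransferase genes and partners, the most one-sided list, 10 were above 0 in treated tau against tau (median 0.13). Against control, 10 of the 12 in tau were below 0 (median -0.15, with 50.5% of all genes below 0). The same tau libraries enter both comparisons. At an unadjusted p under 0.05 there were 4 higher in the first (7.52% of all genes) and 3 lower in the second (5.64%), and none was called.

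Of the 51 genes, 8 share over 5% of their 50-mers with another gene (Chd8, Hdac1, Hdac11, Kat2b, Kat5, Kdm1b, Kdm2b and Setdb1), and 7 have over 5% of exon bases under another gene (Chd8, Hdac11, Hdac4, Kat5, Kdm1b, Kdm2b and Kdm3b). The libraries are strand-specific per the labels, but the strand setting of the counting is not given in the sources used here, so reads of overlapping genes may not be told apart for these members.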

How the data were processed

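The authors deposited 1 table of raw read counts per gene symbol for each of the 6 libraries. Per the labels' protocols, strand-specific libraries were made from total RNA after ribosomal depletion, Cutadapt trimmed the reads, and TopHat2 aligned them to mouse RefSeq mRNAs. Per the submitters' processing notes, SAMtools, featureCounts, edgeR and the build mm10 were used. The sources used here do not give the strand setting of the counting or its treatment of multi-mapped reads.

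Counts of the symbols shared by the 6 tables were fitted with edgeR 4.0.16 in R 4.3.3 (quasi-likelihood test, two-sided). Genes were kept by filterByExpr with a minimum count of 10, libraries were scaled by TMM, and 3 groups of 2 libraries were fitted together, which leaves 3 residual degrees of freedom. P-values were adjusted by the Benjamini-Hochberg method over the 20694 genes tested, with a threshold of 0.05. CPM values use the TMM-scaled library sizes, and levels per kb divide them by the longest annotated transcript. The fits were tested on simulated data with a dispersion of 0.02. Changes of 1.5-fold were called for 16% to 26% of the genes changed, by comparison, and changes of 2-fold for 82% to 92%. Differences of 1.5-fold or less may therefore often go uncalled at that dispersion. It was the same for every simulated gene and was not fitted to the members, whose median SE was about 0.096 on the log2 scale. The share of such differences that would be called among the members was not simulated. Counting error and the spread between libraries both enter the fitted errors, and PCR copies cannot be told from separate molecules in these counts.

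Alternatives were DESeq2 1.42.0, limma-voom (limma 3.58.1), relative log expression scaling, no filter or a minimum count of 50, only the libraries compared, each library left out, replicate and sex terms, GC content and length offsets (mgcv 1.9.3), and protein-coding genes alone. Promoter sequences are RefSeq windows on GRCm38.p6. Genes given with values in each library are, in each class and comparison, that with the smallest unadjusted p, and always the 4 H3K4 demethylases. Arid1b, Ep300 and Smarca4 were added after their values were seen, and Cbx3 is named as a called pathway gene. The members and lists were chosen with earlier results of these data known. Among the cell type markers, 1 gene for excitatory neurons is not reported here.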

Additional observations from a re-analysis of the deposited data

How the results depend on the processing

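The number of members called in treated tau against tau was 2 with DESeq2 and 2 in the fit to only the 4 libraries compared, and 0 to 2 over fits without 1 library. In tau against control and in treated tau against control it was 0 under every alternative run. Over the 51 genes in 3 comparisons and 16 alternatives, 198 of 2441 refitted values changed sign, in 76 values whose reported log2 fold change was at most 0.157 in size. Where a fit left 1 library in a group, that library was assumed to vary like the others.

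The GC content and length offsets gave a member median of -0.004 in treated tau against tau and 0.01 in tau against control, and log2 fold changes of -0.039 for Dot1l, -0.016 for Dnmt3a and -0.046 for Kdm5b in treated tau against tau, and of 0.01 for Dnmt3a and 0.013 for Tet3 in tau against control. With a sex term, treated tau against tau gave -0.126 for Dot1l and -0.01 for Dnmt3a, and tau against control gave -0.016 for Kdm5b, 0.009 for Kdm1a and -0.053 for Kdm1b. The stricter filter gave -0.018 for Kdm5b in tau against control, and in treated tau against control a member median of -0.036 and -0.014 for Kdm5b. With protein-coding genes alone the values were -0.02 for Kdm5b and -0.002 for Kdm1b in tau against control, and -0.001 for Kdm5b in treated tau against control. The causes of these changes were not tested.

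Without 1 library, log2 fold changes in treated tau against tau ran from -0.017 to 0.054 for the member median, -0.095 to 0.016 for Kdm1a, -0.084 to 0.106 for Kdm5b, -0.151 to 0.108 for Ezh2, -0.125 to 0.021 for Hdac3 and -0.015 to 0.091 for Dnmt3a. In tau against control they ran from -0.089 to 0.012 for Kdm1a, -0.078 to 0.146 for Kdm1b, -0.009 to 0.131 for Kdm5a, -0.027 to 0.044 for Kdm5b and -0.272 to 0.101 for Tet3. In treated tau against control they ran from -0.132 to 0.005 for Kdm5a, -0.077 to 0.113 for Kdm5b and -0.069 to 0.012 for Chd8.

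The reported fit did not pair libraries by replicate number. The deviations of same-numbered libraries had correlations of 0.073 in treated tau and tau, 0.01 in tau and control, and -0.008 in treated tau and control. With 2 libraries a group the deviations within a group mirror each other, so these values cannot show whether same-numbered libraries belong together. With the replicate block, 0 members were called in each comparison, and Cbx3 had an adjusted p of 0.0614 in treated tau against tau.

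Over all genes, 779 were called in treated tau against tau, against 45 of 14739 with protein-coding genes alone, 166 with a sex term, 354 and 504 without tau 1 and tau 2, and 429 and 421 without treated tau 1 and treated tau 2. Treated tau against control had 873 calls, against 40 with protein-coding genes alone, and 507 and 495 without treated tau 1 and treated tau 2. For tau against control 0 were called, against 55 with DESeq2, 98 without control 2 and 9 without tau 2. Each group has 2 libraries, which limits the precision of every value.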
